A study of Drosophila melanogaster and Drosophila yakuba and Drosophila virilis with 31 samples.

Results

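Transcript levels in single blastoderm embryos of D. melanogaster (mel) were compared with those of D. virilis (vir). All genes with 1 ortholog in each of the 4 species of the series were considered, and the 5506 of 5993 genes whose mean was above 1 FPKM (fragments per kilobase of transcript and per sequencing depth) in the embryos of at least 1 of these 2 species were tested. The mel group held 6 embryos (3 females and 3 males) of the wild-type strain Oregon-R, and the vir group held 5 embryos (3 females and 2 males) of the strain V46, which together were 11 of the 31 libraries of the series. Each library was made from the unamplified RNA of 1 whole embryo, laid and grown at room temperature by one of many young mothers. Embryos were picked by morphology at the end of the blastoderm stage, after the cells had formed and before gastrulation, and were sexed by PCR for Y-linked sequence. A further vir male, which the study had removed for low quality, was left out unless stated. The groups carried no mutation or treatment, and each species was represented by 1 strain. Reads of each species were mapped to that species' own gene models, so that differences between species, strains, gene models and library preparation cannot be told apart in any value below.

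The blastoderm embryo of a fly is a single layer of cells around the yolk. Its early development runs on RNA that the mother placed in the egg, and during the maternal-to-zygotic transition this RNA is broken down while the genome of the zygote is switched on. By the end of the blastoderm stage the gap, pair-rule and dorsoventral patterning genes have divided the embryo into segments and future tissues, so the RNA of 1 embryo is a mixture of maternal RNA still present and zygotic RNA newly made.

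Levels were highly alike among embryos of 1 species and less alike between the species. Over the 5506 genes, Spearman's rho was 0.98 to 0.99 between pairs of mel embryos and between pairs of vir embryos, and 0.72 to 0.74 between a mel and a vir embryo. The median standard deviation of a gene between embryos was 0.18 in mel and 0.17 in vir on the log2 scale. Blastoderm markers were present in both species, though not all at like levels. The 8 markers in the table summed to 675 to 821 FPKM in mel and 654 to 809.9 FPKM in vir embryos. Twist had 141 ± 12.8 FPKM in mel and 130.2 ± 13.4 FPKM in vir embryos, and even-skipped had 48.7 ± 13.4 FPKM in mel and 47.8 ± 4.36 FPKM in vir embryos. Against these, the furrow genes slam and bnk had 23.3 ± 18.4 FPKM in mel and 234 ± 36.4 FPKM in vir embryos for slam and 10.7 ± 4.29 FPKM in mel and 48.6 ± 8.86 FPKM in vir embryos for bnk, Kr had 159 ± 23 FPKM in mel and 57.9 ± 6.66 FPKM in vir embryos, and nullo was low in both at 1.38 ± 0.459 FPKM in mel and 0.228 ± 0.15 FPKM in vir embryos. Here and below a mean level is given with its standard deviation over the 6 mel and 5 vir embryos. Summed over the 3 of 17 eggshell and follicle cell markers found in the table, levels were 1.32 to 2.7 FPKM in mel and 1.81 to 8.06 FPKM in vir embryos, and summed over the 3 of 13 markers of later tissues they were 35.1 to 60.9 FPKM in mel and 68.7 to 96.9 FPKM in vir embryos, most of it elav. The female-specific early promoter of Sex-lethal (Sxl) makes its RNA a check of the sex labels. It had 626, 926 and 863 FPKM in mel females and 134, 107 and 139.8 FPKM in mel males. In vir it had 453, 379 and 384 FPKM in vir females and 54.3 and 73.9 FPKM in vir males. The male-specific dosage compensation gene msl-2 had the opposite order in both species, with 15.2, 24.7 and 19.6 FPKM in mel females and 102, 75.9 and 94.4 FPKM in mel males, and 29.7, 27.2 and 22.6 FPKM in vir females and 67.5 and 87.8 FPKM in vir males. Because whole embryos were sequenced, fewer cells of a type and less RNA per cell cannot be told apart.

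The levels of 2757 genes (50.1% of those tested) differed between the species by at least 2-fold at an adjusted p under 0.05, with 1412 higher in mel (25.6%) and 1345 higher in vir (24.4%). The test was limma on log2(FPKM + 1) with sex as a covariate and Benjamini-Hochberg adjustment over all genes tested, and every difference below is the fitted log2 difference, mel minus vir, with its standard error. Without the limit on the fold, 4703 genes (85.4%) passed the adjusted p. The embryos of the species did not overlap at 4033 genes (73.2% of those tested) and at 2700 of the 2757 genes called. Of the genes called, 500 were at least 4-fold higher in mel and 516 at least 4-fold higher in vir, and differences of at least 32-fold were found for 26 genes higher in mel and 29 higher in vir. The median difference over all genes was 0.08.

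**Figure D1:**
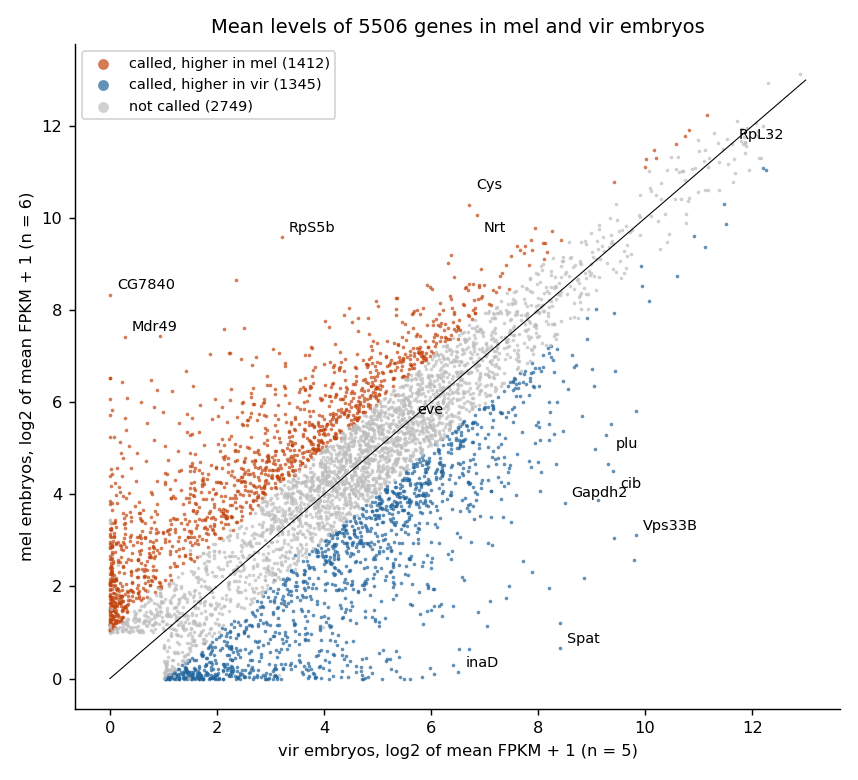
Mean level of each gene tested in mel embryos (vertical axis, n = 6) against vir embryos (horizontal axis, n = 5), as log2 of the mean FPKM plus 1, with equal levels on the line. The 1412 genes higher in mel lie above the line and the 1345 higher in vir below it, and the cloud narrows toward high levels.

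The share of genes called was lower at higher levels. It was 17.3% of the genes with a mean above 500 FPKM over both species, 38.0% at 100 to 500 FPKM, 46.1% at 20 to 100 FPKM, 54.6% at 5 to 20 FPKM and 61.0% under 5 FPKM. By chromosome arm of mel the share called ran between 48.3% for genes on 2L and 53.1% for genes on the X, with 51.2% on 2R, 49.4% on 3L and 49.1% on 3R.

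Transcripts of 15 genes were present in mel embryos and near absent in vir embryos, which is here a mean of at least 50 FPKM against a mean under 1 FPKM. The 4 with the highest mean were CG7840, CG10924, Mdr49 and CG14966. CG7840 (2L:8305589-8306743, coordinates of FlyBase release 5) had between 288 and 395 FPKM in the mel embryos (median 314), and it was listed at 0 in every vir embryo. It was present in mel eggs at 337 FPKM and listed at 0 in both vir eggs. The other species had 241 FPKM in D. yakuba and 8.66 FPKM in D. pseudoobscura embryos. Mdr49 (2R:8827827-8833850) encodes a membrane transporter of the ABC family that guides migrating germ cells. It had between 114 and 198 FPKM in the mel embryos (median 179.7), against 0.113, 0.102, 0.425, 0.0753 and 0.358 FPKM in the vir embryos. The difference for Mdr49 was 7.12 ± 0.14 (limma adjusted p = 3.1e-13). No mel embryo came near a vir embryo, and D. yakuba held it too, with 43.8 FPKM in D. yakuba and 0.36 FPKM in D. pseudoobscura embryos. The symbol CG10924 covers 2 entries of the table, which the gene name table calls Pepck1 and Pepck2, both phosphoenolpyruvate carboxykinases, the entry enzymes of gluconeogenesis. Pepck1 (2R:14424271-14426924) had between 61.9 and 294 FPKM in the mel embryos (median 149), against 1.1, 0.517, 0.69, 1.46 and 0.8 FPKM in the vir embryos, and it was listed at 0 in the eggs of both species. The difference was 6.37 ± 0.32. Pepck1 was near absent from D. yakuba embryos (0.989 FPKM) and had 69 FPKM in D. pseudoobscura embryos. Pepck2 was lower in level but also higher in mel, at 6.38 ± 1.30 FPKM in mel and 0.0252 ± 0.0418 FPKM in vir embryos. CG14966 (3L:3197044-3197614) had 70.7 to 117 FPKM in mel embryos and at most 0.00306 FPKM in a vir embryo. Of the 15 genes, 13 reached 5 FPKM in the embryos of D. yakuba and 10 in those of D. pseudoobscura, and 11 had a mean of at least 10 FPKM in mel eggs against 2 in vir eggs.

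In the other direction 8 genes were present in vir embryos and near absent in mel embryos. They were led by Spat, CG11299, ltd and inaD. Spat (X:6422980-6424759) encodes a serine-pyruvate aminotransferase, also called Agxt, which takes part in glyoxylate and amino acid metabolism. It had between 0.0973 and 1.06 FPKM in the mel embryos (median 0.719), against 324, 349.6, 328, 328 and 357 FPKM in the vir embryos. The difference for Spat was -7.75 ± 0.14 (limma adjusted p = 2.2e-13). CG11299 (2R:19601424-19620706) is Sestrin, a stress-induced brake on TOR signalling, and had between 0.0718 and 1.02 FPKM in the mel embryos (median 0.525), against 94.5, 107, 103, 111 and 102 FPKM in the vir embryos. The Rab GTPase gene ltd, or Rab32, which serves pigment granules in the eye (2R:5065368-5073866), had between 0.132 and 1.16 FPKM in the mel embryos (median 0.381), against 81.3, 105, 84.9, 104 and 79.4 FPKM in the vir embryos. For both CG11299 and ltd the eggs of both species held the transcript, with 49.3 FPKM in mel and 79.5 FPKM in vir eggs for CG11299 and 79.4 FPKM in mel and 107 FPKM in vir eggs for ltd. The scaffold gene inaD (2R:18743210-18746317), known from phototransduction in the adult eye, had between 0 and 0.186 FPKM in the mel embryos (median 0.119), against 102, 100.1, 65.4, 115 and 69.4 FPKM in the vir embryos, and unlike CG11299 and ltd it was near absent from mel eggs (0.0502 FPKM in mel and 40.1 FPKM in vir eggs). All 8 genes had at least 10 FPKM in vir eggs and 2 did in mel eggs. None of the 8 reached 5 FPKM in D. yakuba embryos, and 2 did in those of D. pseudoobscura.

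**Figure D2:**
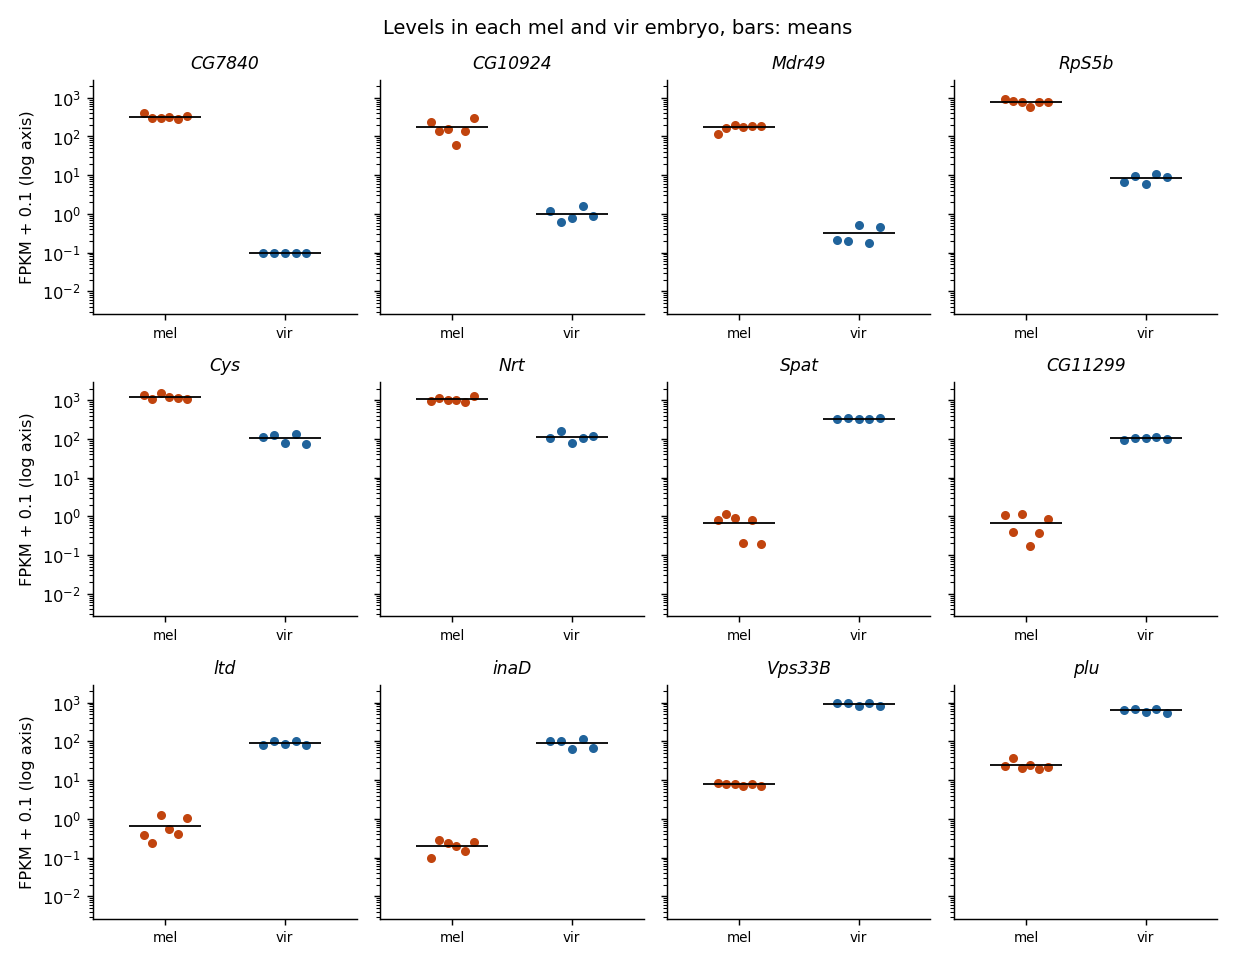
FPKM plus 0.1 on a log axis in each of the 6 mel embryos (left in each panel) and 5 vir embryos (right), with bars at the means, for genes described in the text. In all 12 panels the mel and vir embryos form separate groups, higher in mel in the first 6 panels and higher in vir in the last 6.

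Among genes present in both species, 250 with a symbol other than a CG number were called higher in mel with a mean of at least 5 FPKM in vir, a mean of at least 50 FPKM in mel and no overlap between embryos. The largest difference was that of RpS5b (3R:10726153-10727310), 1 of a pair of genes for the small-subunit ribosomal protein S5, which had between 561 and 919.6 FPKM in the mel embryos (median 774), against 6.39, 9.39, 5.94, 10.6 and 8.86 FPKM in the vir embryos. The difference for RpS5b was 6.39 ± 0.15 (limma adjusted p = 1.1e-12). Its paralog RpS5a was higher in vir, at 937 ± 128 FPKM in mel and 2924 ± 184 FPKM in vir embryos (difference -1.63 ± 0.08), so both members of the pair were high in mel while in vir nearly all of the RNA was RpS5a. Summed over both genes the level was 1342 to 2003 FPKM in mel and 2696 to 3145 FPKM in vir embryos. Reads that the copies share are divided between them by the estimation, so the level of each alone is uncertain. Cys (3R:10394752-10395363), a cystatin that inhibits cysteine proteases, had between 1087 and 1553 FPKM in the mel embryos (median 1185), against 110.2, 124, 77.3, 132 and 75.9 FPKM in the vir embryos. The difference for Cys was 3.61 ± 0.15 (limma adjusted p = 1.7e-10), and was near absent from the eggs of both species. The zinc finger gene l(3)neo38 had 218 ± 37.8 FPKM in mel and 15.2 ± 1.96 FPKM in vir embryos (3.75 ± 0.12) and was higher in vir eggs instead (0.217 FPKM in mel and 26.8 FPKM in vir eggs). Su(fu), a negative regulator of Hedgehog signalling, had 109 ± 6.19 FPKM in mel and 8.6 ± 0.575 FPKM in vir embryos (3.53 ± 0.07). The other 4 of the 8 largest were torp4a, or Torsin, an ATPase of the nuclear envelope and endoplasmic reticulum (4.35 ± 0.22), wol, a glycosyltransferase of protein N-glycosylation (3.92 ± 0.08), Tango6, named for a role in transport and Golgi organization (3.58 ± 0.09), and mTTF, the mitochondrial transcription termination factor (3.49 ± 0.11).

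The same criteria gave 196 genes higher in vir. The largest was Vps33B (3R:21299237-21301478), a gene of endosomal membrane traffic, which had between 6.75 and 8.53 FPKM in the mel embryos (median 7.74), against 966, 969, 804, 981 and 803 FPKM in the vir embryos. The difference for Vps33B was -6.70 ± 0.08 (limma adjusted p = 7.5e-15). Its levels in the other species were close to those of mel, with 7.39 FPKM in D. yakuba and 8.77 FPKM in D. pseudoobscura embryos. The second, cib (X:4000147-4005014), encodes ciboulot, a small actin-binding protein of the beta-thymosin family, and had between 8.67 and 46.6 FPKM in the mel embryos (median 15.3), against 598, 675, 631, 783 and 674 FPKM in the vir embryos. The difference for cib was -5.25 ± 0.36 (limma adjusted p = 1.6e-08). The mel embryos varied widely for this gene, and the highest of them was still far under the lowest vir embryo. The plutonium gene plu (2R:16150462-16151224), part of the PNG kinase complex that drives the early cell cycles and the translation of maternal RNA, had between 19 and 36.5 FPKM in the mel embryos (median 22.5), against 651, 700.1, 579.5, 705 and 538 FPKM in the vir embryos. The difference for plu was -4.66 ± 0.14 (limma adjusted p = 8.1e-12). Gapdh2 (X:15762177-15763694), 1 of the glyceraldehyde-3-phosphate dehydrogenase genes, had between 11.1 and 14.8 FPKM in the mel embryos (median 13.4), against 465.7, 268, 384, 269 and 412 FPKM in the vir embryos. The difference for Gapdh2 was -4.63 ± 0.15 (limma adjusted p = 1.4e-11). The remaining 4 of the 8 largest were l(1)G0255 (-4.24 ± 0.10), l(1)G0334, the alpha subunit of pyruvate dehydrogenase (-4.11 ± 0.17), Gdi, which extracts Rab GTPases from membranes (-4.07 ± 0.07), and Nacalpha, which binds nascent polypeptides (-4.01 ± 0.10). Of these, Nacalpha was the most abundant, with 55.3 ± 8.23 FPKM in mel and 909 ± 70.7 FPKM in vir embryos.

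Of genes made by the zygote, a larger share was higher in mel than in vir, and of maternal genes about as many were higher in each species. The origin of each gene in mel comes from an earlier study of allele-specific expression, which did not use these libraries. Of 867 genes classed zygotic in mel, 384 (44.3%) were higher in mel and 129 (14.9%) higher in vir, with a median difference of 0.86. The 3527 maternal genes had 774 (21.9%) higher in mel and 849 (24.1%) higher in vir and a median of -0.02, and the 756 genes of both origins had 211 (27.9%) and 137 (18.1%) and a median of 0.27. The zygotic class needs expression in mel, so that genes low in mel are missing from it. The study also predicted classes for vir, with a classifier trained on mel genes and applied to the vir eggs and embryos. By these classes, the 1137 zygotic genes had 436 (38.3%) higher in mel and 270 (23.7%) higher in vir. The 663 genes zygotic in both species had 297 (44.8%) and 83 (12.5%), with a median of 0.87. The vir classes rest on the vir levels compared here, and genes zygotic in both species still need expression in mel. The 356 genes without a class in mel had 43 higher in mel (12.1%) and 230 (64.6%) higher in vir. Genes low in mel can fall into this group by selection and pass the filter through vir, so its share is no separate result. Whether the embryos of the species were collected at the same point of the stage was not tested.

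Levels in unfertilized eggs, of which 2 were sequenced for each species, are given beside the embryos as a description, with no test. For 820 of the 1345 genes higher in vir embryos (61.0%) the egg means of the species were within 2-fold, and for 387 (28.8%) the vir eggs were at least 2-fold higher too. Among the 1412 genes higher in mel embryos, 862 (61.0%) had egg means within 2-fold and 489 (34.6%) were at least 2-fold higher in mel eggs. Over all genes tested, 66.1% were within 2-fold in eggs, 19.9% were higher in mel eggs and 13.9% higher in vir eggs. The egg ratios were taken after adding 1 FPKM to each mean, so genes near absent from both eggs count as within 2-fold. Both egg means were under 1 FPKM for 399 (28.3%) of the genes higher in mel embryos and 247 (18.4%) of those higher in vir embryos. Over all genes tested this share was 18.5%. Several of the largest differences were of genes present in the eggs of both species, with like eggs and unlike embryos. Gapdh2 had 165 and 634 FPKM in the mel eggs, against 374 and 355 FPKM in the vir eggs, while its embryo mean was 13.2 FPKM in mel and 359.6 FPKM in vir. For cib the eggs had 336 and 628 FPKM in mel and 468 and 444 FPKM in vir. The deadenylase gene twin had 116 FPKM in mel and 94.7 FPKM in vir eggs, and 33.7 FPKM in mel and 245 FPKM in vir embryos. By contrast Pgi was already lower in mel eggs (30.9 FPKM in mel and 174 FPKM in vir eggs), as were Vps33B (14.1 FPKM in mel and 411 FPKM in vir eggs) and Nacalpha (72.6 FPKM in mel and 1014 FPKM in vir eggs).

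**Figure D3:**
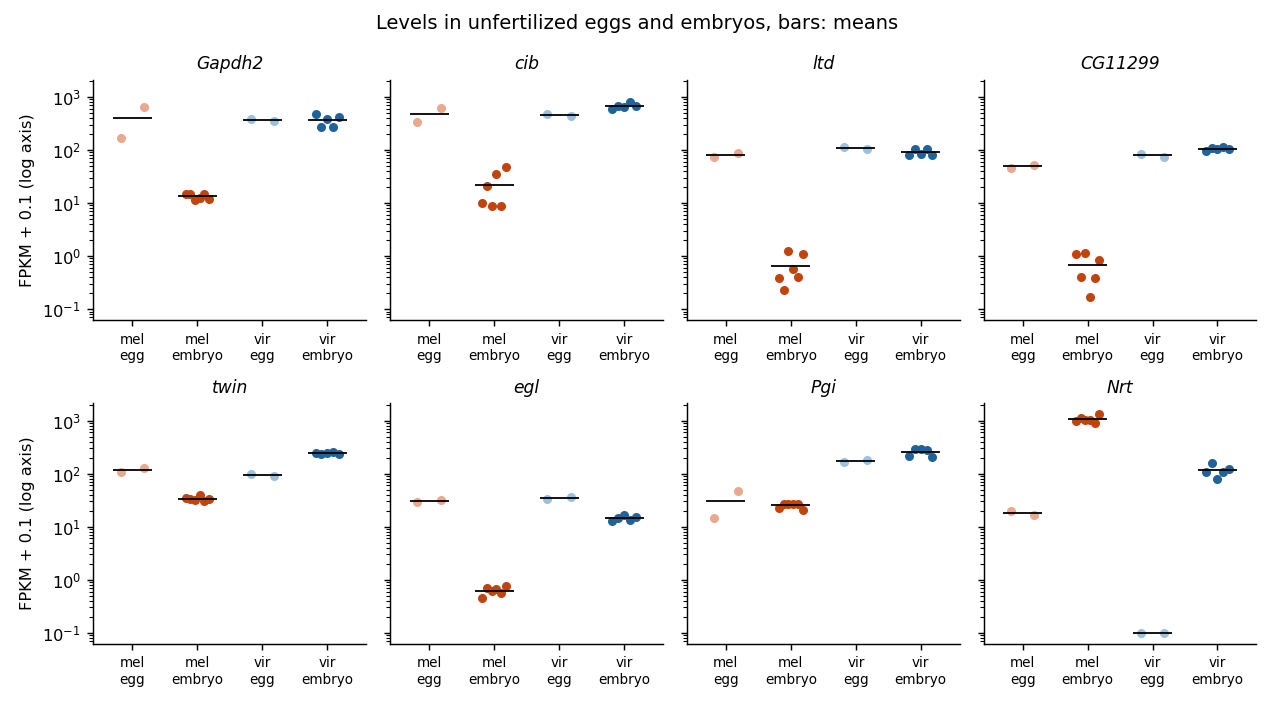
FPKM plus 0.1 on a log axis in each unfertilized egg (2 per species) and each embryo (6 mel, 5 vir), with mel to the left of vir in each panel and bars at the means. Gapdh2, cib, ltd, CG11299, twin and egl have like egg levels in both species and lower embryo levels in mel, Pgi is higher in vir at both stages, and Nrt is higher in mel at both stages.

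Among genes that pattern the anteroposterior axis, calls ran between none of the pair-rule genes and 3 of 5 homeotic genes, and none was higher in vir. Over all genes tested 25.6% were higher in mel and 24.4% higher in vir. None of the 10 pair-rule genes, which set the segment repeat, was called, beside 50.1% of all genes tested, although 9 of the 10 lay above 0 and the median difference was 0.53. The levels of even-skipped (eve) were the closest of the list, with between 37.8 and 68 FPKM in the mel embryos (median 42.2), against 45.8, 51.1, 47.5, 41.8 and 52.8 FPKM in the vir embryos, so that the embryos of the species overlapped. The largest differences of the list, those of prd (0.93 ± 0.11) and slp1 (0.91 ± 0.14), were just under the 2-fold limit. With the first vir male kept, or the first or the third mel female left out, 1 pair-rule gene passed it, and 2 did in males alone. Of the gap and head gap genes, 8 were tested, of which 2 were higher in mel and 0 higher in vir, and the median difference was 0.31. The share higher in mel was thus about that of all genes. Krüppel (Kr), the gap gene of the central embryo, had between 131 and 187 FPKM in the mel embryos (median 159), against 58.5, 64.8, 47.7, 62.5 and 55.9 FPKM in the vir embryos. The difference for Kr was 1.44 ± 0.11 (limma adjusted p = 4.8e-08). The head gap gene cnc, listed as CG13826, was also higher in mel (1.12 ± 0.13), whereas huckebein (hkb) was at 31.8 ± 10.5 FPKM in mel and 34.2 ± 7.18 FPKM in vir embryos. Of the segment polarity genes, 7 were tested, of which 2 were higher in mel and 0 higher in vir, and the median difference was 0.94. The 2 were wingless (wg, 1.14 ± 0.14), the Wnt ligand of segment borders, and gooseberry (gsb, 1.60 ± 0.31), a paired-type homeobox gene. Patched (ptc), the Hedgehog receptor, was at 163 ± 22 FPKM in mel and 148 ± 17 FPKM in vir embryos. The call of wg was lost without the second vir male (0.99), and 4 genes of the list were called without the third mel male, the third mel female or the third vir female. Among homeotic genes and their cofactors, 5 were tested, of which 3 were higher in mel and 0 higher in vir, and the median difference was 1.35. Teashirt (tsh), a trunk selector, had between 48.1 and 91.1 FPKM in the mel embryos (median 70.0), against 10.7, 10.7, 15.7, 9.09 and 14.7 FPKM in the vir embryos. The difference for tsh was 2.41 ± 0.18 (limma adjusted p = 3.3e-08). The cofactor homothorax (hth, 1.56 ± 0.12) and Antennapedia (Antp, 1.35 ± 0.18) were the others, at 282 FPKM in mel and 95.5 FPKM in vir embryos for hth and 10.5 FPKM in mel and 3.38 FPKM in vir embryos for Antp.

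For the dorsoventral axis, calls in the dorsal patterning list and the mesoderm and neurectoderm list were all higher in mel. The few calls among maternal Toll genes were higher in vir. Over all genes 25.6% were higher in mel and 24.4% higher in vir. The dorsal list also held genes present in eggs, such as Mad (91.6 FPKM in mel and 119 FPKM in vir eggs) and put (89.6 FPKM in mel and 44.8 FPKM in vir eggs). Of the dorsal patterning and BMP genes, 21 were tested, of which 7 were higher in mel and 0 higher in vir, and the median difference was 0.48. The 3 largest were zygotic targets of BMP signalling in the dorsal ectoderm and amnioserosa. The T-box gene Doc2 had between 45.4 and 61.2 FPKM in the mel embryos (median 54.4), against 6.34, 7.51, 0.655, 7.89 and 3.66 FPKM in the vir embryos. The difference for Doc2 was 3.32 ± 0.36 (limma adjusted p = 1.6e-06). Ance, a peptidase of the angiotensin-converting enzyme family, had between 73.5 and 105 FPKM in the mel embryos (median 78.4), against 10.9, 9.23, 11.9, 14.3 and 18.3 FPKM in the vir embryos. The difference for Ance was 2.61 ± 0.14 (limma adjusted p = 1.7e-09). The GATA factor pannier (pnr) followed at 19.9 ± 4.62 FPKM in mel and 4 ± 2.62 FPKM in vir embryos (2.29 ± 0.43). The ligands and extracellular regulators that act upstream were close, with differences of 0.48 for dpp, 0.22 for scw, 0.40 for sog and 0.24 for tsg, none of them called, and crossveinless-2 (cv-2) was at 36.2 ± 6.35 FPKM in mel and 41.7 ± 16.4 FPKM in vir embryos. The receptor gene put (-0.77) and the signal transducer Mad (-0.98) lay on the vir side and were not called, and 1 gene of the list was called higher in vir without the third mel male, the third mel female, the second vir female or the third vir female. Among mesoderm and neurectoderm genes, 18 were tested, of which 9 were higher in mel and 0 higher in vir, and the median difference was 0.91, the list including Mdr49 described above. With the quantile table or a pseudocount of 0.1 FPKM 1 gene of it was higher in vir, and with a pseudocount of 10 FPKM 5 were higher in mel. The FGF ligand pyramus (pyr) had between 17.7 and 24.2 FPKM in the mel embryos (median 22.5), against 1.5, 1.46, 2.44, 0.926 and 1.21 FPKM in the vir embryos. The difference for pyr was 3.23 ± 0.14 (limma adjusted p = 1.8e-10). Its partner ligand thisbe (ths, 1.25 ± 0.26) and their receptor heartless (htl, 1.46 ± 0.20) were higher in mel as well. The gene stumps of the same pathway, which stood on the gastrulation list, was not called (0.80 ± 0.14). Single-minded (sim), the midline regulator, had 9.92 ± 1.48 FPKM in mel and 1.17 ± 0.437 FPKM in vir embryos (2.35 ± 0.16). The mesoderm determinants twist (twi, 0.11) and snail (sna, 0.68) and the neurectoderm protease gene rhomboid (rho, -0.03) were not called. Of the maternal Toll pathway genes, which set up this axis in the egg, 7 were tested, of which 0 were higher in mel and 2 higher in vir, and the median difference was -0.69. This share is close to that of all genes. It moved with the pseudocount, which gave 4 higher in vir and 1 higher in mel at 0.1 FPKM and none at 10 FPKM. None was called with means above 10 FPKM required, and 1 was higher in mel in males alone. The proteases snake (snk) and gastrulation defective (gd) were higher in vir, at 0.87 ± 0.136 FPKM in mel and 8.86 ± 0.609 FPKM in vir embryos for snk and 0.369 ± 0.13 FPKM in mel and 2.51 ± 0.699 FPKM in vir embryos for gd. Both were under 1 FPKM in mel and passed the filter on low values through vir only. The inhibitor cactus (cact) was at 384 ± 39.3 FPKM in mel and 334 ± 23.7 FPKM in vir embryos.

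Some genes of the forming epithelium and of neurogenesis were higher in mel, in shares of each list near the 25.6% of all genes, and few cellularization and gastrulation genes were called. Among epithelial polarity and adhesion genes, 12 were tested, of which 3 were higher in mel and 0 higher in vir, and the median difference was 0.56. Neurotactin (Nrt), a cell adhesion protein made in all blastoderm cells, had between 917 and 1308 FPKM in the mel embryos (median 1030.3), against 107, 159, 79, 108 and 120.5 FPKM in the vir embryos. The difference for Nrt was 3.23 ± 0.15 (limma adjusted p = 3.6e-10). Patj, a scaffold of the Crumbs complex, had 51.3 ± 13 FPKM in mel and 6.57 ± 1.12 FPKM in vir embryos (2.77 ± 0.18), and scribble (scrib) lay at the limit (1.02 ± 0.12), which it missed when any of 5 single embryos was left out (0.95 to 1.00). Crumbs (crb) itself was at 152 ± 27.2 FPKM in mel and 151 ± 23.9 FPKM in vir embryos. Of Notch and proneural genes, 12 were tested, of which 4 were higher in mel and 0 higher in vir, and the median difference was 0.56, led by achaete (ac, 1.63 ± 0.19), lethal of scute (l(1)sc, 1.36 ± 0.11) and the ubiquitin ligase neuralized (neur, 1.22 ± 0.10). Suppressor of Hairless (Su(H)), which carries the Notch signal to DNA, was at 35.5 ± 6.04 FPKM in mel and 35.3 ± 2.7 FPKM in vir embryos. For cellularization genes, 11 were tested, of which 1 was higher in mel and 2 higher in vir, and the median difference was 0.54. The furrow genes slam and bnk were both higher in vir. Slam, which guides the growth of the furrow membrane, had between 6.07 and 47.5 FPKM in the mel embryos (median 16.5), against 239, 263, 172, 257 and 237 FPKM in the vir embryos. The difference for slam was -3.60 ± 0.45 (limma adjusted p = 6.6e-06). Within mel it was lowest in 2 males (7.78 and 6.07 FPKM). Bottleneck (bnk), which holds the furrow canals together early in the process, had 10.7 ± 4.29 FPKM in mel and 48.6 ± 8.86 FPKM in vir embryos (-2.12 ± 0.22). The dynamin gene shibire (shi) was higher in mel (1.34 ± 0.08), and Rho1 was at 556 ± 45.3 FPKM in mel and 567.9 ± 52.8 FPKM in vir embryos. With the first vir male kept, or without the third mel female or the second vir male, 2 genes of the list were higher in mel. Of 8 gastrulation genes tested (median 0.46) only Traf4, a signalling adaptor, was called (1.15 ± 0.16, higher in mel). It missed the limit in males alone (0.95), and 2 of the 8 were called with the first vir male kept or the third vir male left out.

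Factors that act on maternal RNA were higher in vir or not called. Of the maternal RNA clearance genes, 14 were tested, of which 0 were higher in mel and 7 higher in vir, and the median difference was -0.97. The 7 genes of 14 stand beside 24.4% of all genes higher in vir, and over the alternatives they were 6 to 8. Besides plu, described above, the largest were twin and sra. The catalytic deadenylase twin, which shortens poly(A) tails, had between 30.1 and 38.9 FPKM in the mel embryos (median 33.6), against 249, 238, 244, 256 and 235 FPKM in the vir embryos. The difference for twin was -2.83 ± 0.07 (limma adjusted p = 1.7e-12). Sarah (sra), a calcineurin regulator of egg activation, had between 5.393 and 8.09 FPKM in the mel embryos (median 6.73), against 53.2, 57.3, 50.3, 52.7 and 52.1 FPKM in the vir embryos. The difference for sra was -2.81 ± 0.09 (limma adjusted p = 1.0e-11). In both genes the embryos of each species lay close together and far from the other species. The other 4 were the decapping factor Edc3 (-2.18 ± 0.23), the RNA helicase bel (-2.03 ± 0.09), the deadenylase Pop2 (-1.65 ± 0.11) and the repressor pumilio (pum, -1.18 ± 0.21). The scaffold of the deadenylase complex, Not1, was at 84.9 ± 9.81 FPKM in mel and 100.03 ± 7.61 FPKM in vir embryos, and smaug (smg), a repressor that starts the clearance, was not called (-0.77 ± 0.09). Among zygotic genome activation factors 6 were tested, of which 0 were higher in mel and 1 higher in vir, and the median difference was -0.04. Stat92E, the transcription factor of the JAK/STAT pathway, was higher in vir (78.5 ± 4.82 FPKM in mel and 189 ± 21.5 FPKM in vir embryos, -1.26 ± 0.07), while vielfaltig (vfl), better known as zelda, had a difference of 0.15 ± 0.14, and E(bx), a chromatin remodelling subunit, was at 80.7 ± 6.08 FPKM in mel and 80.1 ± 3.31 FPKM in vir embryos.

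Germ plasm and piRNA genes were called in both directions, in shares of the lists near those of all genes (25.6% higher in mel and 24.4% higher in vir). Of the germ plasm and RNA localization genes, 12 were tested, of which 4 were higher in mel and 3 higher in vir, and the median difference was 0.06. The dynein adaptor genes Egalitarian (egl) and Bicaudal D (BicD), which work as 1 complex in RNA transport, were both higher in vir. Egl had between 0.363 and 0.654 FPKM in the mel embryos (median 0.54), against 12.8, 14.4, 16.3, 13.5 and 14.8 FPKM in the vir embryos. The difference for egl was -3.33 ± 0.10 (limma adjusted p = 8.3e-12), and its eggs were alike (30.4 FPKM in mel and 34.9 FPKM in vir eggs). BicD had 2.78 ± 0.828 FPKM in mel and 15.3 ± 3.33 FPKM in vir embryos (-2.10 ± 0.17). Oskar (osk), which assembles the germ plasm, had 1.06 ± 0.398 FPKM in mel and 6.42 ± 3.92 FPKM in vir embryos (-1.62 ± 0.35), beside 270.1 FPKM in mel and 113 FPKM in vir eggs. Tudor (tud, 1.76 ± 0.10), aubergine (aub, 1.45 ± 0.11) and staufen (stau, 1.18 ± 0.10) were higher in mel. The polar granule gene pgc had between 1.4 and 57.9 FPKM in the mel embryos (median 27.1), against 6.89, 4.15, 6.99, 5.73 and 6.91 FPKM in the vir embryos. It was called, with a difference of 1.43 ± 0.61 (limma adjusted p = 0.042), but the embryos overlapped and the call was lost when any of 7 single embryos was left out (1.11 to 1.46). Among piRNA pathway genes, which silence transposons in the germ line, 9 were tested, of which 3 were higher in mel and 3 higher in vir, and the median difference was 0.17. Tejas, listed as CG8589, had between 51.4 and 73.9 FPKM in the mel embryos (median 60.2), against 2.69, 2.25, 1.38, 2.41 and 2.28 FPKM in the vir embryos. The difference for CG8589 was 4.28 ± 0.13 (limma adjusted p = 6.9e-12). In the opposite direction shutdown (shu) had between 0.086 and 2.34 FPKM in the mel embryos (median 2), against 31.6, 39.3, 30.6, 37.4 and 32.1 FPKM in the vir embryos. The difference for shu was -3.89 ± 0.27 (limma adjusted p = 1.6e-08). Cutoff (cuff, 1.67 ± 0.23) was higher in mel, vreteno (vret, -1.58 ± 0.11) and CG8920 (-1.18 ± 0.12) were higher in vir, and piwi was at 38.5 ± 5.56 FPKM in mel and 21.8 ± 3.2 FPKM in vir embryos. The markers of pole cells and germ plasm found in the table, osk, tud, pgc and nos, summed to 33.8 to 122 FPKM in mel and 19.2 to 41.9 FPKM in vir embryos, and the part of pole cell number in these values was not tested.

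Every glycolytic gene tested differed between the species. Of 13 glycolytic enzyme genes named, 8 were found in the data and tested. Of these 8, 2 were higher in mel and 6 higher in vir, beside 50.1% of all genes called, and the median difference was -1.90. The 6 higher in vir were Gapdh2, described above, Pgi, Pgk, Hex-A, Tpi and Ald, which are enzymes of the main pathway. Pgi, the isomerase of glucose phosphate, had between 20.8 and 27.1 FPKM in the mel embryos (median 26.7), against 218, 289.6, 291, 274 and 204 FPKM in the vir embryos. The difference for Pgi was -3.28 ± 0.11 (limma adjusted p = 2.4e-11). Pgk, phosphoglycerate kinase, had between 17.7 and 28.5 FPKM in the mel embryos (median 24), against 164, 102, 163, 91.1 and 145 FPKM in the vir embryos. The difference for Pgk was -2.40 ± 0.17 (limma adjusted p = 2.9e-08). Hexokinase Hex-A and triose phosphate isomerase Tpi were low in both species, at 0.76 FPKM in mel and 5.89 FPKM in vir embryos for Hex-A and 0.76 FPKM in mel and 5.54 FPKM in vir embryos for Tpi. Aldolase (Ald) was the most abundant of them in mel, at 91.4 ± 14.7 FPKM in mel and 187 ± 26.1 FPKM in vir embryos (-1.02 ± 0.12). It was under the 2-fold limit in males alone (-0.87), in the fit with replicate numbers as a block (-0.98) and without the first mel male, the first mel female or the third vir female (-0.96 to -0.95). The 2 higher in mel were phosphofructokinase Pfk, the gate enzyme of the pathway, at 9.01 ± 1.34 FPKM in mel and 2.65 ± 0.491 FPKM in vir embryos (1.47 ± 0.12), and lactate dehydrogenase ImpL3, at 11.1 ± 2.32 FPKM in mel and 3.32 ± 1.99 FPKM in vir embryos (1.55 ± 0.24). ImpL3 was near absent from the eggs of both species (0.0938 FPKM in mel and 0 FPKM in vir eggs) and missed the limit in males alone (0.99). With a pseudocount of 10 FPKM 3 glycolytic genes were higher in vir, with means above 10 FPKM required 4, and in every other alternative 5 or 6. The median of the list stayed between -2.25 and -1.86 over the scalings. Of purine synthesis genes, 6 were tested, of which 2 were higher in mel and 1 higher in vir, and the median difference was -0.08. The trifunctional enzyme gene ade3 had between 7.26 and 14.1 FPKM in the mel embryos (median 13.6), against 0.147, 0.37, 0.553, 0.351 and 0.503 FPKM in the vir embryos. The difference for ade3 was 3.24 ± 0.15 (limma adjusted p = 4.9e-10). CG17273, adenylosuccinate synthetase, was higher in vir (368 ± 32.7 FPKM in mel and 978 ± 153 FPKM in vir embryos, -1.40 ± 0.10), ade2 was higher in mel (1.36 ± 0.16), and burgundy (bur) was at 48.9 ± 3.01 FPKM in mel and 64.5 ± 7.35 FPKM in vir embryos and not called. Oxidative phosphorylation genes had 3 of 13 higher in mel and 2 higher in vir (median 0.21), near the shares of all genes (25.6% and 24.4%). The largest were SdhC (2.23 ± 0.15), ND75 (1.71 ± 0.12) and cytochrome c (Cyt-c-p, 1.53 ± 0.10) in mel, and mtacp1 (-2.18 ± 0.11) and levy (-1.92 ± 0.15) in vir, while ATPsyn-b was at 247 ± 21.7 FPKM in mel and 245 ± 9.1 FPKM in vir embryos.

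Genes of the cytoplasmic ribosome were close in level apart from a few members. Of 56 cytoplasmic ribosomal protein genes tested, 5 were higher in mel and 6 higher in vir, together 19.6% beside 50.1% of all genes, and the median absolute difference was 0.43 beside 1.01 over all genes. These genes are among the most abundant, where fewer genes were called in general. Of all genes with a mean above 500 FPKM, which include most of this list, 17.3% were called. Their median absolute difference was 0.435, so the list was about as close as abundant genes in general. RpL32 was the closest, at 3128 ± 266 FPKM in mel and 3147 ± 266 FPKM in vir embryos. After RpS5b the largest in mel were RpLP0-like, a ribosome assembly factor (2.06 ± 0.10), and RpS13 (1.09 ± 0.07), and in vir RpL34a (-1.73 ± 0.09), RpS5a and RpL35A (-1.29 ± 0.12). With the first vir male kept, RpS13 missed the limit (0.97) and 2 genes of the list were higher in mel. Mitochondrial ribosomal protein genes, encoded in the nucleus for a separate ribosome, had 13 of 34 higher in mel and 6 higher in vir (median 0.26), together 55.9% beside 50.1% of all genes. The largest in mel were mRpL1 (3.30 ± 0.16), mRpL15 (3.27 ± 0.17) and mRpL14 (3.12 ± 0.18), at 61.6 FPKM in mel and 5.4 FPKM in vir embryos for mRpL1, and the largest in vir were mRpS25 (-2.84 ± 0.11), mRpL38 (-1.92 ± 0.13) and mRpL48 (-1.71 ± 0.11), with mRpS34 at 26.4 ± 2.45 FPKM in mel and 26 ± 6.78 FPKM in vir embryos. Translation initiation and elongation factors had 2 of 21 higher in mel and 2 higher in vir (median -0.07). The initiation helicase eIF-4a, 1 of the most abundant, had 2197 ± 88.4 FPKM in mel and 1028 ± 47.2 FPKM in vir embryos (1.10 ± 0.05), and eIF4G2 was higher in mel too (2.26 ± 0.16). In vir eIF-2alpha (-1.63 ± 0.07) and eIF5B (-1.26 ± 0.10) were higher, and eIF5 was at 552 ± 49 FPKM in mel and 544 ± 85.3 FPKM in vir embryos. For tRNA synthetases the counts were 4 of 18 higher in mel and 4 higher in vir (median -0.45), led by Aats-his (1.86 ± 0.18), Aats-met (1.37 ± 0.12) and Aats-thr (1.29 ± 0.07) in mel and Aats-cys (-2.69 ± 0.10), Aats-ala (-2.43 ± 0.09) and Aats-asp (-2.18 ± 0.07) in vir, with Aats-ile at 68.2 ± 6.16 FPKM in mel and 61.9 ± 5.07 FPKM in vir embryos.

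Proteasome genes were called about as often as all genes (50.1%), with 5 of 16 higher in mel and 3 higher in vir (median 0.47). The ATPase subunits Rpt4 (2.63 ± 0.12) and Pros45 (1.71 ± 0.10) and the core subunit Prosalpha5 (2.45 ± 0.09) were higher in mel, and Rpt3, an ATPase of the same ring (-1.66 ± 0.09), and Rpn1 (-1.06 ± 0.08) were higher in vir. Rpt4 had 362 ± 21.3 FPKM in mel and 62.1 ± 19.3 FPKM in vir embryos, and Rpt3 had 43 ± 7.82 FPKM in mel and 140.3 ± 17.3 FPKM in vir embryos. Prosbeta7 was at 566 ± 27 FPKM in mel and 520.1 ± 51.9 FPKM in vir embryos. The pattern that made this list also took in Prosap (-1.13 ± 0.20), which is no proteasome gene and which missed the limit without the third mel male (-0.99). Chaperones of the heat shock family had 4 of 13 higher in mel and 5 higher in vir (median -0.47), beside 25.6% and 24.4% of all genes. Hsc70-4, the main cytoplasmic chaperone, had 2491 ± 141 FPKM in mel and 1037 ± 108 FPKM in vir embryos (1.27 ± 0.07), and Hsc70-3, the chaperone of the endoplasmic reticulum, had 123 ± 31 FPKM in mel and 19.97 ± 3.55 FPKM in vir embryos (2.51 ± 0.14). The small heat shock genes Hsp23 (-1.95 ± 0.23) and Hsp27 (-1.56 ± 0.17) and the mitochondrial Hsc70-5 (-1.55 ± 0.08) were higher in vir. Hsc70-2 was called higher in mel (2.41 ± 0.59) but varied between 0.0293 and 20.7 FPKM among mel embryos and overlapped with vir, and Hsc70Cb was at 36 ± 6.62 FPKM in mel and 71.3 ± 5.21 FPKM in vir embryos, just under the limit.

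The cell cycle list had 2 of 14 higher in mel and 1 higher in vir (median 0.03), beside 25.6% and 24.4% of all genes. String (stg), the phosphatase that starts mitosis, had 23 ± 4.35 FPKM in mel and 8.22 ± 1.84 FPKM in vir embryos (1.37 ± 0.15), and dacapo (dap), a cyclin-dependent kinase inhibitor, had 7.43 ± 2.26 FPKM in mel and 1.88 ± 1.48 FPKM in vir embryos (1.68 ± 0.32). The inhibitory kinase Myt1 was higher in vir (-1.17 ± 0.12), and rap, or fizzy-related, was at 45.1 ± 12.7 FPKM in mel and 46.7 ± 7.23 FPKM in vir embryos. Among MCM and origin complex genes, which license replication, the counts were 2 of 9 higher in mel and 2 higher in vir (median -0.48), which is near the share of all genes called (50.1%). Orc5 (1.63 ± 0.08) and Mcm6 (1.21 ± 0.11) were higher in mel, Orc4 (-1.86 ± 0.19) and Mcm3 (-1.35 ± 0.18) in vir, and Mcm7 was at 489 ± 24.4 FPKM in mel and 401 ± 24.1 FPKM in vir embryos. Polycomb group genes had 2 of 12 higher in mel and 1 higher in vir (median 0.60). The histone methyltransferase gene E(z) had 54.2 ± 4.56 FPKM in mel and 155 ± 3.69 FPKM in vir embryos (-1.51 ± 0.07), and Polycomb (Pc, 1.29 ± 0.07) was higher in mel, as was Psc (1.02 ± 0.15) in a call lost when any of 6 single embryos was left out (0.92 to 1.00). With the first vir male kept 4 genes of the list were higher in mel, and Pcl was at 64.5 ± 6.02 FPKM in mel and 58.1 ± 3.62 FPKM in vir embryos. Of 4 actin genes tested (median -0.21) Act42A was higher in mel (507 ± 37.6 FPKM in mel and 226 ± 14.2 FPKM in vir embryos, 1.17 ± 0.07) and the muscle actin gene Act87E in vir (5.28 ± 1.86 FPKM in mel and 29.6 ± 9.09 FPKM in vir embryos, -2.30 ± 0.27). Act5C, the most abundant, was at 3175 ± 63.2 FPKM in mel and 2640.3 ± 122 FPKM in vir embryos.

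Detoxification and cuticle genes held large differences at low levels. Cytochrome P450, glutathione transferase and UDP-glycosyltransferase genes had 10 of 26 higher in mel and 6 higher in vir (median 0.72), and only 26 of 36 passed the filter on low values, so these counts are not those of all members. Over all genes 25.6% were higher in mel and 24.4% higher in vir. The pattern that made the list also took in Cyp1 (259.8 ± 39.3 FPKM in mel and 539.5 ± 111 FPKM in vir embryos, -1.06 ± 0.13), which is a cyclophilin and is 1 of the 6 higher in vir. GstD1, a glutathione transferase, had between 0.54 and 4.72 FPKM in the mel embryos (median 1.51), against 75.5, 74, 72.3, 91.9 and 109 FPKM in the vir embryos. The difference for GstD1 was -4.96 ± 0.29 (limma adjusted p = 3.5e-09). Its eggs held the transcript in both species (249 FPKM in mel and 83.9 FPKM in vir eggs). Cyp6d2 had between 0 and 0.0419 FPKM in the mel embryos (median 0), against 26.8, 24.8, 31.9, 24.8 and 22.8 FPKM in the vir embryos, and was listed at 0 in mel eggs, beside 44.3 FPKM in vir eggs. Cyp9c1 was also higher in vir (-3.03 ± 0.11). The genes Cyp6d5, Cyp4e2 (2.79 ± 0.12) and Cyp309a1 (2.54 ± 0.14) were higher in mel, Cyp6d5 with 1.34 to 40.3 FPKM among mel embryos and listed at 0 in every vir embryo. The gene Ugt was at 41.4 ± 3.81 FPKM in mel and 47.9 ± 3.24 FPKM in vir embryos. Of 13 larval and cuticle protein genes 10 passed the filter, with 3 higher in mel and 5 higher in vir (median -0.08). Every gene called in this list was under 1 FPKM in the other species. Each thus passed the filter through 1 species only, so the share called is no separate result. Ccp84Ab was listed at 0 in every mel embryo and had 50.1, 43.8, 45.5, 39.1 and 42.9 FPKM in the vir embryos. The others named by the rule were under 5 FPKM in both species, with Cpr47Eg, Cpr78Cc and Cpr67Fb (1.89 ± 0.20) higher in mel and Cpr23B (-1.88 ± 0.12) and Cpr49Ag higher in vir. Cpr47Eg and Cpr78Cc, with means of 3.09 and 3.28 FPKM in mel embryos, were listed at 0 in every vir embryo, and Cpr49Ag, with 1.61 FPKM in vir embryos, was listed at 0 in every mel embryo. Of the marker lists, blastoderm markers had 1 of 8 higher in mel and 2 higher in vir (median 0.39), pole cell and germ plasm markers 2 of 4 higher in mel and 1 higher in vir (median 0.87), eggshell and follicle cell markers 0 of 2 higher in mel and 1 higher in vir (median -0.42) and later tissue markers 1 of 2 higher in mel and 0 higher in vir (median 0.12). Yp3, a yolk protein gene of the follicle cells, was higher in vir (0.633 ± 0.343 FPKM in mel and 3.81 ± 2.25 FPKM in vir embryos, -1.39 ± 0.21), the adhesion gene Fas2 was higher in mel (2.35 ± 0.239 FPKM in mel and 0.542 ± 0.184 FPKM in vir embryos, 1.13 ± 0.11), and the neural gene elav was at 42.7 ± 8.76 FPKM in mel and 80.9 ± 12.5 FPKM in vir embryos, under the limit (-0.88 ± 0.11).

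**Figure D4:**
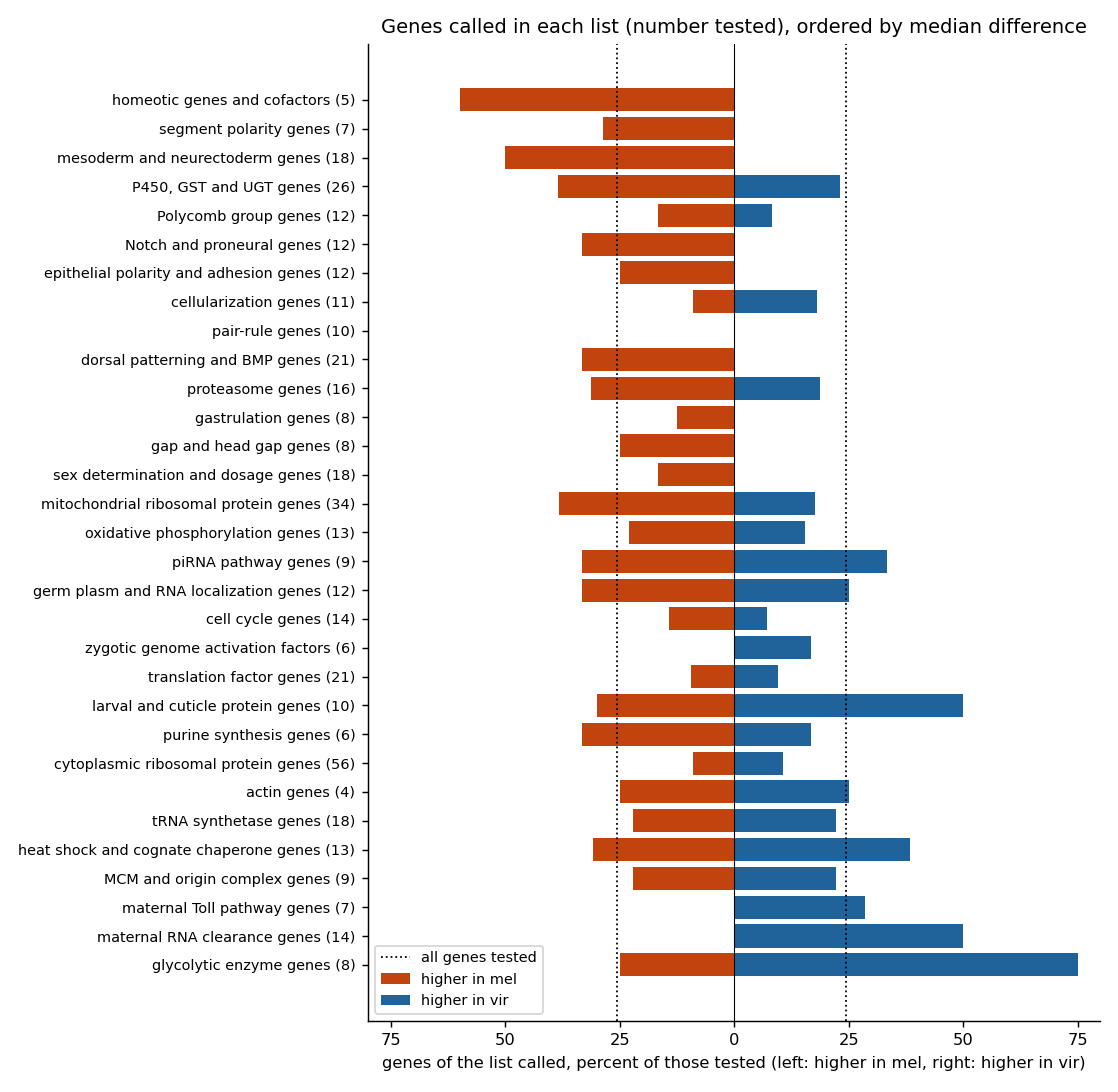
Share of the tested genes of each list that were called higher in mel (bars to the left) and higher in vir (bars to the right), in percent, with the number tested in parentheses, lists ordered from the highest median difference at the top, and dotted lines at the shares over all genes (25.6% and 24.4%). The zygotic patterning lists have no bar on the vir side, and the glycolytic and RNA clearance lists have the longest bars there together with the cuticle genes.

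The sex determination and dosage compensation genes had 3 of 18 higher in mel and 0 higher in vir (median 0.30), beside 25.6% and 24.4% of all genes. The 3 were the X-linked signal elements sisA and os (the JAK/STAT ligand upd1), which count the X chromosomes for Sxl, and the autosomal repressor deadpan (dpn), which opposes them. SisA had between 58.8 and 302 FPKM in the mel embryos (median 99.6), against 38.6, 60.6, 37.3, 46.2 and 24.6 FPKM in the vir embryos. The difference for sisA was 1.49 ± 0.29 (limma adjusted p = 0.00038), with the third mel female far above the rest and 1 overlapping pair of embryos. Os had 11.8 ± 4.04 FPKM in mel and 3.34 ± 0.354 FPKM in vir embryos (1.54 ± 0.16) and dpn had 92.2 ± 13.4 FPKM in mel and 28.3 ± 5.01 FPKM in vir embryos (1.67 ± 0.12). Sxl lay just under the limit (0.98 ± 0.12) and passed it with the first vir male kept (1.03), and fl(2)d, a splicing cofactor of Sxl, was at 74.6 ± 9.5 FPKM in mel and 72.4 ± 5.91 FPKM in vir embryos. The test of whether the species difference depended on the sex called 12 genes (0.218% of those tested) at an adjusted p under 0.05, and 301 had an unadjusted p under 0.05. All 12 were X-linked in mel, while 916 of the genes tested (16.6%) lay on the X of mel. Linkage in vir was not examined. The proteasome gene Rpt4 had 353, 391 and 375 FPKM in mel females and 332, 350.1 and 372 FPKM in mel males, and 77.7, 79.1 and 71.4 FPKM in vir females and 41.2 and 41.2 FPKM in vir males. Its sexes thus overlapped in mel and were apart in vir. The clathrin heavy chain gene Chc had 197, 239 and 249 FPKM in mel females and 216, 215 and 191 FPKM in mel males, and 105, 91.9 and 96.5 FPKM in vir females and 182 and 204 FPKM in vir males. The Rab GTPase gene Rab10 had 112, 124 and 114 FPKM in mel females and 218, 229.9 and 263 FPKM in mel males, and 325, 322 and 326 FPKM in vir females and 312 and 299 FPKM in vir males. The number called depended on single embryos. It was 1 to 10 with each embryo left out in turn, of which up to 5 were autosomal in mel, and 2 with the first vir male kept. With the replicate numbers as a block it was 3, all of them X-linked in mel and among the 12.

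**Figure D5:**
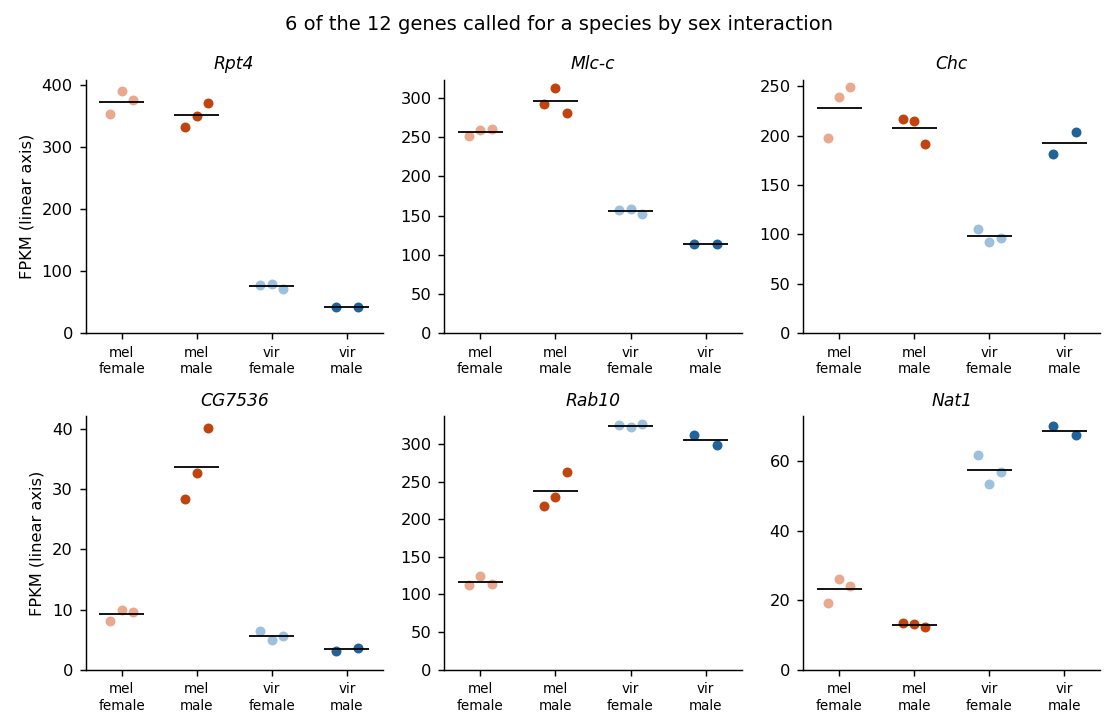
FPKM on a linear axis in each female and male embryo of mel (left) and vir (right), with bars at the means, for 6 of the 12 genes with a species by sex interaction. Rpt4 and Mlc-c are lower in males in vir without overlap, while in mel the sexes overlap for Rpt4 and Mlc-c is higher in males, Chc is higher in males in vir, CG7536 and Rab10 are higher in males in mel, and Nat1 is higher in females in mel.

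Genomic spans were within 2-fold between the species at most genes. A span runs from the start to the end of a gene with its introns, and the transcript lengths that FPKM uses were not compared. The genomic span in mel was at least 2-fold longer at 317 genes (5.76%), and that in vir was at least 2-fold longer at 354 (6.43%). Among genes higher in mel, 115 (8.14%) had a mel span at least 2-fold longer and 106 (7.51%) a vir span at least 2-fold longer, and among genes higher in vir these were 68 (5.06%) and 96 (7.14%). The part of gene models in the differences was not tested. The span of Mdr49 was 6.02 kb in mel and 5.3 kb in vir, that of RpS5b 1.16 kb in mel and 0.979 kb in vir, that of Spat 1.78 kb in mel and 2.95 kb in vir and that of Vps33B 2.24 kb in mel and 3.94 kb in vir.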

How the data were processed

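RNA of single embryos was sequenced by the authors on an Illumina platform without amplification of the RNA, reads were aligned with Bowtie2 (submitters' processing notes) and abundances estimated with eXpress on each species' own transcripts. The authors deposited log10(FPKM + 1) values after 75th-percentile normalization, for genes with 1 ortholog in all 4 species. These log10 values were turned back to FPKM. The 16 group mean columns deposited beside them were not used.

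Genes with a mean above 1 FPKM in the embryos of either species were tested with limma 3.58.1 (R 4.3.3) on log2(FPKM + 1), with species and sex as terms and a trended prior, which was tested on simulated data beforehand. A gene was called at an adjusted p under 0.05 (Benjamini-Hochberg) and a difference of at least 2-fold. A second fit added the species by sex interaction, called on its adjusted p alone. Per the methods, embryos came from a large pool of mothers, so that 2 embryos of 1 mother are unlikely, and p-values measure the spread between single embryos of 1 strain. Tables were made with Python 3.11.15 and pandas 2.3.3.

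Members and lists were chosen with earlier results of these data known. Named were the 4 highest genes present in 1 species and near absent in the other, the 8 largest graded differences in each direction among genes with a symbol other than a CG number, and of each list up to 3 called genes in each direction and the member with the smallest difference at 20 FPKM or more in both species. The sex check genes Sxl and msl-2 were added. Of the list members named, prd, slp1, dpp, scw, sog, tsg, put, Mad, twi, sna, ths, htl, stumps, bel, Pop2, pum, Edc3, smg, vfl, nos, nullo, Cyp1, Pgk, Hex-A, Tpi and Ald were chosen after their values were seen where the rule did not take them. Lists made by name pattern can hold other genes, such as Cyp1 (a cyclophilin) among the P450 genes. Lists made by naming genes were often found only in part, so counts do not cover all members. Examples are 5 of 12 homeotic genes and cofactors, 9 of 19 piRNA genes and 13 of 27 oxidative phosphorylation genes. The gene name table held 5671 of the gene IDs, and 172 genes had no symbol in the deposited table. The deposited table's own mel coordinates (FlyBase release 5) were printed, and no other build was used.

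Alternatives were the authors' tables with no, median, 95th-percentile, TMM and quantile normalization, pseudocounts of 0.1 and 10 FPKM, no filter and a filter at 10 FPKM, the removed vir male kept, all embryos of 4 species in 1 fit, each sex alone, a replicate block, other call rules and each embryo left out.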

Additional observations from a re-analysis of the deposited data

Results flagged for a closer look

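In 17 of 334 groups of embryos tested (5.09%), 1 embryo stood apart from the rest of its group, a group being the embryos of 1 species, both sexes together, for 1 gene. Among mel embryos the separate embryo was the highest for ImpL3 (15.5 FPKM in the second mel female, median 10.5), plu (36.5 FPKM in the second mel female, median 22.5), sisA (302 FPKM in the third mel female, median 99.6) and Traf4 (319 FPKM in the third mel female, median 179), and the lowest for ade3 (7.26 FPKM in the first mel female, median 13.6) and Mdr49 (114 FPKM in the first mel female, median 179.7). Among vir embryos it was the highest for gsb (6.8 FPKM in the third vir female, median 2.35), stg (11.4 FPKM in the third vir male, median 7.67), dpn (37.2 FPKM in the second vir female, median 26.3), Mcm3 (150.0 FPKM in the third vir male, median 108) and Cpr23B (4.12 FPKM in the third vir male, median 2.5). It was the lowest for Act87E (13.9 FPKM in the third vir female, median 32.2), cv-2 (13.6 FPKM in the third vir female, median 44.7), E(bx) (74.4 FPKM in the third vir male, median 81.8), mRpL1 (2.88 FPKM in the first vir female, median 6.12), Myt1 (7.45 FPKM in the third vir female, median 10.4) and slam (172 FPKM in the third vir female, median 239). In mel the separate embryo was always a female, and in vir it was most often the third female or the third male. The cause was not tested for any of them.

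For 12 genes X-linked in mel the difference between the sexes was not the same in both species (limma interaction term, adjusted p between 0.0028 and 0.046). The female minus male difference in mel, less that in vir, was below 0 for CG7536 (-2.34 ± 0.23), CG14438 (-1.80 ± 0.29), Rab10 (-1.10 ± 0.13), SLIRP1 (-1.02 ± 0.17), Rpt4 (-0.78 ± 0.12) and Mlc-c (-0.66 ± 0.11), on the log2 scale with its standard error. It was above 0 for CG2918 (0.96 ± 0.15), CG13957 (0.97 ± 0.16), Nat1 (1.04 ± 0.18), Chc (1.10 ± 0.16), Imp (1.13 ± 0.19) and CG8924 (1.32 ± 0.22). CG7536 had means of 9.22 FPKM in mel females and 33.7 FPKM in mel males, and 5.61 FPKM in vir females and 3.39 FPKM in vir males. CG14438 had means of 8.8 FPKM in mel females and 17.8 FPKM in mel males, and 57 FPKM in vir females and 31.6 FPKM in vir males. The vir group had 2 males, and the number of genes called moved with single embryos.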

How the results depend on the processing

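The species difference kept its direction for every named gene called, in each of up to 25 alternatives in which the gene was recomputed. Of 167 named genes 138 were called, and 92 of these in every alternative. In 4153 recomputed differences of named genes 89 calls were lost, 43 of them with a pseudocount of 10 FPKM, and 14 genes ever lost a call outside it. Of the 29 named genes not called, 16 changed sign in at least 1 alternative. Over all genes, a pseudocount of 10 FPKM left 673 higher in mel and 655 higher in vir, and dropping the fold limit gave 2447 and 2256. A test against a 2-fold difference (limma treat) gave 1030 and 1014, and leaving out each embryo in turn gave 1393 to 1442 higher in mel and 1319 to 1371 higher in vir. The median difference was 0.08 with the 75th-percentile table, 0.141 with the median table, 0.0428 with the 95th-percentile table and 0.0465 with the quantile table.

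The species by sex interaction, with 12 genes called, was called for 6 with the median table, 3 with the 95th-percentile table, 5 with the TMM table, 6 without the filter on low values, 2 with the first vir male kept and 1 to 10 with each embryo left out. In the last of these settings some genes called were autosomal in mel, such as 5 of 9 without the first vir female. The cause was not tested.

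Whether replicate numbers in the labels paired the embryos was examined only between mel and vir embryos. Deviations of same-numbered mel and vir embryos, of the same or the other sex, from their group means correlated between -0.106 and 0.108 over 10 pairs, against -0.187 to 0.187 for 20 differently numbered pairs. Deviations within a group cancel out, and those of the vir males mirror each other, so these ranges cannot show that pairing was absent. Same-numbered females and males of the same species were not compared. With the replicate block 1417 genes were higher in mel and 1340 higher in vir, Ald was the named gene that lost its call, and the interaction was called for 3 genes. The deposited values hold no read counts, so depth is unknown, and differences of genes under a few FPKM rest on an unknown number of reads. The vir male left out correlated at 0.955 to 0.973 with the other vir embryos.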
